A study of Mus musculus with 12 samples.

Results

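The 10 mast cell genes Mcpt4, Cma1, Tpsb2, Cpa3, Kit, Ms4a2, Fcer1a, Mrgprb1, Mrgprb2 and Hdc were followed in the ear skin of mice injected with IL-17A, IL-36γ or both cytokines. The genes were chosen by name, and each symbol was matched to 1 Ensembl identifier of the count table, which lists 50684 genes. All 10 passed the filter on low counts and entered the test, with 19408 genes tested in all. RNA-Seq was run on 12 ears of C57BL/6 mice. Of these, 3 received PBS, 3 IL-36γ, 3 IL-17A, and 3 the combination IL-17A + IL-36γ. The animals were female and 8 weeks old, and no genotype beyond the strain is given. The cytokine groups received 1 µg of IL-17A, 1 µg of IL-36γ or 1 µg of each in 5 µl of PBS into the ear pinna, and the control group received PBS. The paper states 4 days of consecutive treatment, after which the tissue was taken (day 4). The 3 mice per group are those sequenced of 5 treated, so the p-values measure the spread between mice.

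Mast cells are resident cells of the dermis that store histamine, heparin and proteases in granules and release them when IgE bound to their surface receptor meets an antigen. They depend on the receptor tyrosine kinase KIT and its ligand, stem cell factor. Connective tissue mast cells of mouse skin are also triggered without IgE, through receptors of the Mrgprb family that respond to cationic peptides and drugs. IL-17A and IL-36γ are cytokines that are raised in psoriatic skin.

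The genes are protein coding in the GENCODE annotation of GRCm38. Mcpt4 (chr14:56059629-56062313, 5 exons, minus strand) and Cma1 (chr14:55941451-55944675, minus strand) lie in the chymase locus, and Mrgprb1 (chr7:48444113-48456342, minus strand) and Mrgprb2 (chr7:48550965-48558086, 2 exons, minus strand) lie in the Mrgprb cluster. The other members are Tpsb2 (chr17:25366305-25369098, plus strand), Cpa3 (chr3:20215620-20242181, minus strand), Kit (chr5:75574916-75656722, plus strand), Ms4a2 (chr19:11615523-11623719, minus strand), Fcer1a (chr1:173221284-173227214, minus strand) and Hdc (chr2:126593667-126619299, minus strand). Of the windows of 76 bases, the read length, along the exons, 2.42% were shared with Cma2 for Mcpt4, 1.58% with Gm48934 for Cma1 and 1.19% with Ms4a4b for Ms4a2, and none with another gene for the other 7 members. The microRNA gene Mir7007 overlaps Cpa3.

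Promoter sequences from RefSeq (GRCm38.p6) were available for 9 of the 10 members, and Tpsb2 had none. The motif of GATA factors, searched as AGATAA with its variant TGATAA, and then AGATAG with its variant TGATAG, on both strands, was present in the 300 bases around the start of 8 of these 9 genes. It was present in 29.8% of all 32851 promoters. The E-boxes CACATG and CACGTG, bound by MITF among others, were found in 1 member, Fcer1a, against 20.4% of all promoters. The 250 bases before the start are shown for 2 granule proteases that did not pass the test (Mcpt4 and Cpa3), 3 receptor genes that were lowered (Ms4a2, Mrgprb1 and Mrgprb2) and the IgE receptor chain that was raised (Fcer1a). The window of Hdc, also raised, lies inside the span that GENCODE gives the gene and is not shown. Capitals mark the GATA motif and, in Fcer1a, also the E-box CACATG. The GATA motif reads as its reverse complement where it lies on the opposite strand.
Mcpt4, chr14:56062311-56062560, minus strand: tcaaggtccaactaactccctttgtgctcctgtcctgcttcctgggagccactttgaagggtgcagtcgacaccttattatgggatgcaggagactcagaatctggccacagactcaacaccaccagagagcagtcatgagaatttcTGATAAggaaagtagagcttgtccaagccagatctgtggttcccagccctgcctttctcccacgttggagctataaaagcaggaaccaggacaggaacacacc
Cpa3, chr3:20242182-20242431, minus strand: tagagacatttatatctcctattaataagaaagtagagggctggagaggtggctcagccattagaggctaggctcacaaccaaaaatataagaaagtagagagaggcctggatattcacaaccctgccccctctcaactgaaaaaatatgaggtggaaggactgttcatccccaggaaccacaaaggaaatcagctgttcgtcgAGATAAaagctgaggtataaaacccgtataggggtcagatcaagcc
Ms4a2, chr19:11623720-11623969, minus strand: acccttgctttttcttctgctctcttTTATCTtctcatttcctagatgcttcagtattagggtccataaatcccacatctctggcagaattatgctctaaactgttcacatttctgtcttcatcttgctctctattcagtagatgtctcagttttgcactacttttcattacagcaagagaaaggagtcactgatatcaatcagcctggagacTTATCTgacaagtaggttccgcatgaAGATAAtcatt
Mrgprb1, chr7:48456343-48456592, minus strand: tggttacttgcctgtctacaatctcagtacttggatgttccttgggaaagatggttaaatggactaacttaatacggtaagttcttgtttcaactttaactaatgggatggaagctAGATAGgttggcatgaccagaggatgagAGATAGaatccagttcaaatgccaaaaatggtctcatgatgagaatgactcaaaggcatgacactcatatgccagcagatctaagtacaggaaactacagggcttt
Mrgprb2, chr7:48558087-48558336, minus strand: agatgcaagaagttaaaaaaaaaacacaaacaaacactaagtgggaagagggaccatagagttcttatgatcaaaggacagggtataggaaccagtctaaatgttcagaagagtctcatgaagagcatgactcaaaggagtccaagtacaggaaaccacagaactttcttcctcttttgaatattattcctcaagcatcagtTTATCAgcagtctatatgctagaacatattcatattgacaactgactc
Fcer1a, chr1:173227230-173227479, minus strand: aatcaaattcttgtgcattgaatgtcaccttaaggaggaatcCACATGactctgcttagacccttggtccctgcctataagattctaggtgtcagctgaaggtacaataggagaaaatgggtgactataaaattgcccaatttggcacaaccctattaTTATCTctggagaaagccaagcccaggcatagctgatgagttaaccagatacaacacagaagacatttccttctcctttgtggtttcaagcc
The motif closest to a start among the members was that of Ms4a2, beginning 11 bases before it, and Ms4a2 held 3 of them. It began 46 bases before the start of Cpa3 and 48 bases before that of Mrgprb2. In the window of Kit no GATA motif of these letters was found. The motif was thus shared by proteases and receptor genes, and its presence in a window is a description, not a binding site.

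The libraries held between 25293468 and 34759293 counts, of which the 10 members took between 0.0230% and 0.0328%. PBS replicate 1 and IL-17A + IL-36γ replicates 1 and 2 stood apart by their skeletal muscle genes, which summed to 149, 160 and 83.3 CPM (the counts of a gene scaled to a common library total after TMM normalisation), against 557 to 1875 CPM in the other 9 libraries. PBS replicate 2 had the highest S100a8 of its group, 31.5 CPM against 2.24 CPM in the lowest. The 3 libraries low in muscle genes touch the comparison of the combination with PBS on both sides, and members whose result changes without them are given with both values.

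The label of mast cell genes fitted the tissue. The defining proteases were present in each library, with Cpa3 at 60.7 to 103 CPM, while the mucosal mast cell proteases Mcpt1 and Mcpt2 were at or near 0 (0.0283 CPM and 0.0780 CPM at most) and Mcpt9 had no count. Per kilobase of exon, the 3 highest in PBS were Cpa3 (47.1 ± 4.32 CPM per kilobase, SD, n = 3), Cma1 (47.1 ± 4.89) and Mcpt4 (45.8 ± 3.95), which did not differ beyond their spread. Tpsb2 followed with 8.99 ± 0.368 CPM per kilobase. Ms4a2 (4.55 ± 0.308) and Mrgprb1 (4.41 ± 0.468) overlapped, and so did Mrgprb1 and Mrgprb2 (3.51 ± 0.672). Kit (2.06 ± 0.176) and Hdc (1.97 ± 0.760) overlapped as well, and Fcer1a (1.36 ± 0.334) was lowest in the mean but overlapped Hdc. In the combination Hdc moved from rank 9 to rank 5 on this scale and Mrgprb2 from rank 7 to rank 9. The order of the lower members depends on the length used, since only 23 of the 40 ranks were the same with the longest transcript.

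**Figure D1:**
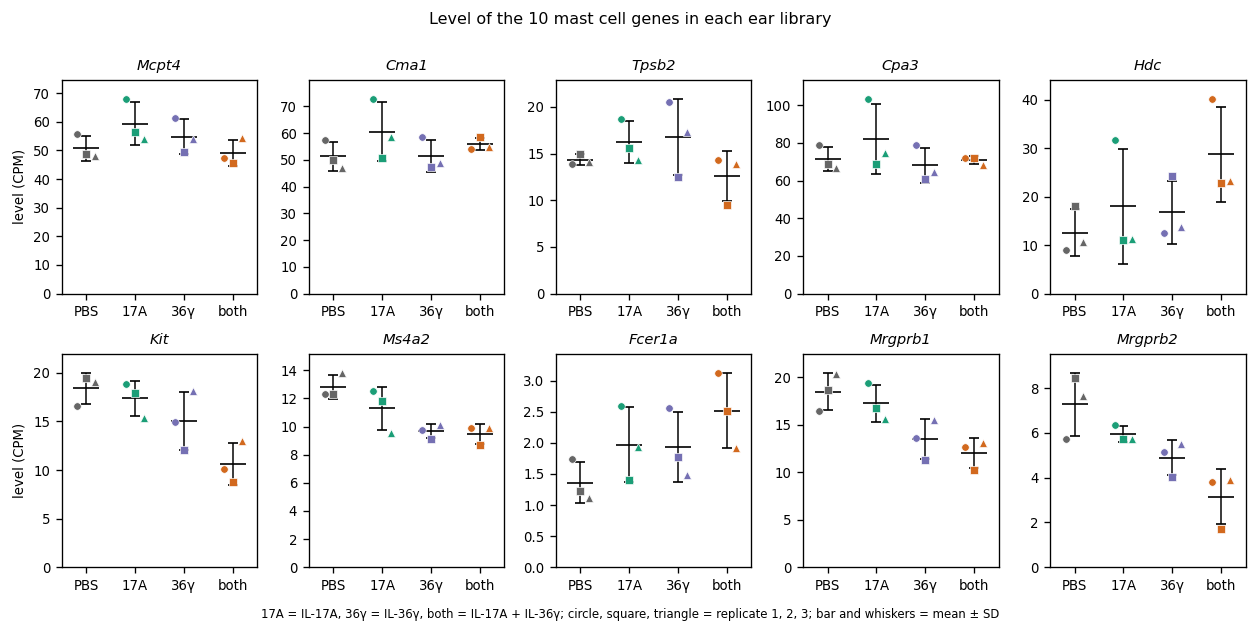
Level of each mast cell gene in CPM on the vertical axis, by group, with 1 point per ear library and the mean ± SD of 3 mice. The proteases Mcpt4, Cma1, Tpsb2 and Cpa3 overlap between PBS and the combination, Kit, Ms4a2, Mrgprb1 and Mrgprb2 lie lower in the combination than in PBS in every library, and Fcer1a and Hdc lie higher.

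After IL-17A + IL-36γ mast cell genes moved in both directions. The receptor genes Kit, Ms4a2, Mrgprb1 and Mrgprb2 were lowered against PBS, Fcer1a and the histamine-forming enzyme gene Hdc were raised, and the 4 protease genes did not pass the test. With IL-36γ alone Ms4a2 and Mrgprb1 were lowered, and with IL-17A alone no member passed. Here a gene passed at an adjusted p-value below 0.05 in the quasi-likelihood test of edgeR, adjusted over all 19408 genes, and was called where its log2 change also exceeded 1 in size. For the combination 4 of 10 members were lowered at any fold, beside 20.9% of all genes tested, and 2 of 10 were raised, beside 23.7%. The call held for 1 member lowered (Mrgprb2), beside 6.06% of all genes, and 1 raised (Hdc), beside 7.35%. The 3 libraries of the combination lay all below those of PBS for 4 members, beside 25.6% of all genes, and all above for 2, beside 27.0%. The comparison changed a large share of all genes, so the number of members past the test is read against it, and a list of 10 genes gives no finer reading. In whole ear tissue fewer mast cells and less of an RNA per mast cell cannot be told apart for any of these genes.

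**Figure D2:**
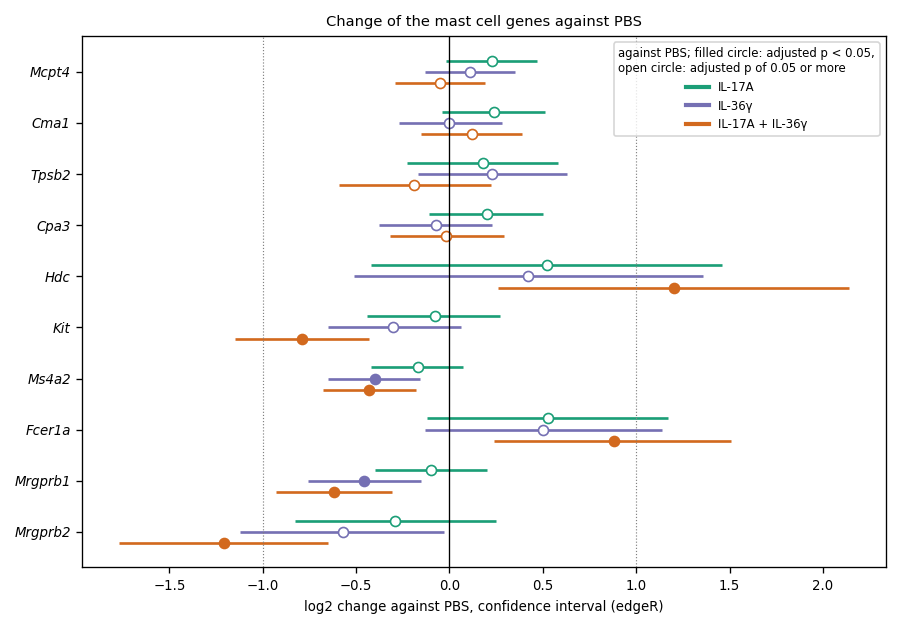
Log2 change of each mast cell gene against PBS (horizontal axis) with its 95% interval from edgeR, for each cytokine and for the combination, with 3 mice per group. Filled circles mark an adjusted p-value below 0.05, and dotted lines mark a log2 change of 1 in either direction. The combination reaches -1.21 for Mrgprb2 and 1.20 for Hdc, while the intervals of the 4 proteases include 0.

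None of the 4 granule proteases among the members passed the test against PBS. Cpa3, the carboxypeptidase that is stored with the chymases and tryptases, was at 79.0, 68.6 and 66.9 CPM in PBS and at 103, 68.8 and 74.4 CPM after IL-17A. With IL-36γ it was at 78.6, 60.7 and 64.7 CPM, and with both cytokines at 71.9, 72.1 and 68.2 CPM. The groups overlapped, and the log2 change by the combination was -0.02, with a 95% interval from -0.32 to 0.29 (adjusted p = 0.935). Mcpt4, the chymase that accounts for most chymotryptic activity of mouse skin mast cells, was at 55.8, 48.6 and 47.9 CPM in PBS and 47.2, 45.6 and 54.3 CPM after both cytokines. Its interval ran from -0.29 to 0.19. Cma1, another chymase of the locus, was at 57.3, 49.8 and 47.0 CPM in PBS and at 54.2, 58.4 and 55.0 CPM after both, a log2 change of 0.12 (-0.15 to 0.39). Tpsb2, a tryptase, was at 13.9, 15.0 and 14.1 CPM in PBS and at 14.3, 9.51 and 13.9 CPM after both, with a log2 change of -0.19 (-0.59 to 0.22). The intervals leave room for changes of up to 0.59 on the log2 scale for Tpsb2 and 0.39 or less for the other 3 proteases. After IL-17A alone the log2 changes of the 4 proteases lay between 0.18 and 0.24, and the highest of the 3 libraries was replicate 1 for each of them. After IL-36γ alone they lay between -0.07 and 0.23.

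Kit, which encodes the receptor for stem cell factor, fell by 42.1% after the combination. It was at 16.6, 19.5 and 19.1 CPM in PBS and at 18.9, 17.9 and 15.4 CPM after IL-17A. IL-36γ alone gave 14.9, 12.1 and 18.1 CPM, and both cytokines gave 10.1, 8.78 and 13.0 CPM. All 3 libraries of the combination lay below those of PBS and of IL-17A. The log2 change was -0.79 ± 0.17 (SE, n = 3 against 3, adjusted p = 0.00252 by edgeR) and -0.60 without the 3 libraries low in muscle genes (adjusted p = 0.0630). After IL-36γ alone the change of -0.30 did not pass (adjusted p = 0.189). Kit is also expressed by melanocytes. All 6 of the melanocyte genes Dct, Tyr, Tyrp1, Pmel, Mlana and Slc45a2 were lowered after the combination, beside 20.9% of all genes tested. All 6 were also lowered after IL-36γ, beside 11.1%. Their sum was 95.0 to 133 CPM in PBS, 44.0 to 56.7 CPM after both and 48.0 to 52.5 CPM after IL-36γ. Without the libraries low in muscle genes the log2 changes of the 6 genes after the combination lay between -1.40 and -0.81. The part of melanocytes in the value of Kit was not tested. The ligand gene Kitl fell as well, from 61.0 ± 1.31 to 48.9 ± 3.93 CPM (log2 change -0.32, adjusted p = 0.00366), and by a similar amount after IL-36γ alone (-0.34, adjusted p = 0.00463).

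The chains of the high-affinity IgE receptor moved in opposite directions. Ms4a2, which encodes the beta chain that amplifies the signal, was at 12.3, 12.3 and 13.8 CPM in PBS and at 12.5, 11.8 and 9.57 CPM after IL-17A. After IL-36γ it was at 9.75, 9.14 and 10.1 CPM, and after both cytokines at 9.87, 8.67 and 9.90 CPM. Each library with IL-36γ lay below each PBS library. The log2 change was -0.40 ± 0.11 after IL-36γ (adjusted p = 0.0210) and -0.43 ± 0.11 after both cytokines (adjusted p = 0.00969). Without the 3 libraries low in muscle genes the second value was again -0.43, with an adjusted p of 0.104, as 1 library of the combination remained.

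Fcer1a, the alpha chain that binds IgE, was the lowest member, at 1.74, 1.22 and 1.12 CPM in PBS and at 2.59, 1.40 and 1.93 CPM after IL-17A. The IL-36γ libraries had 2.56, 1.77 and 1.48 CPM, and those of the combination had 3.12, 2.52 and 1.91 CPM. The libraries of the combination lay above those of PBS, with a log2 change of 0.88 ± 0.29 (adjusted p = 0.0284). Each cytokine alone gave about the same smaller value, 0.53 for IL-17A (adjusted p = 0.247) and 0.50 for IL-36γ (adjusted p = 0.212), and neither passed. Without the 3 libraries low in muscle genes the change by the combination was 0.67 (adjusted p = 0.248), and it also did not pass without PBS replicate 2 or 3 or without replicate 1 or 2 of the combination. Fcer1g, the gamma chain that many myeloid cells share, rose from 20.6 ± 3.68 CPM in PBS to 84.7 ± 10.7 CPM after both cytokines. It was at 40.3 ± 8.93 CPM with IL-17A and at 72.9 ± 11.7 CPM with IL-36γ, with a log2 change of 2.04 for the combination (adjusted p = 1.67e-05).

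**Figure D3:**
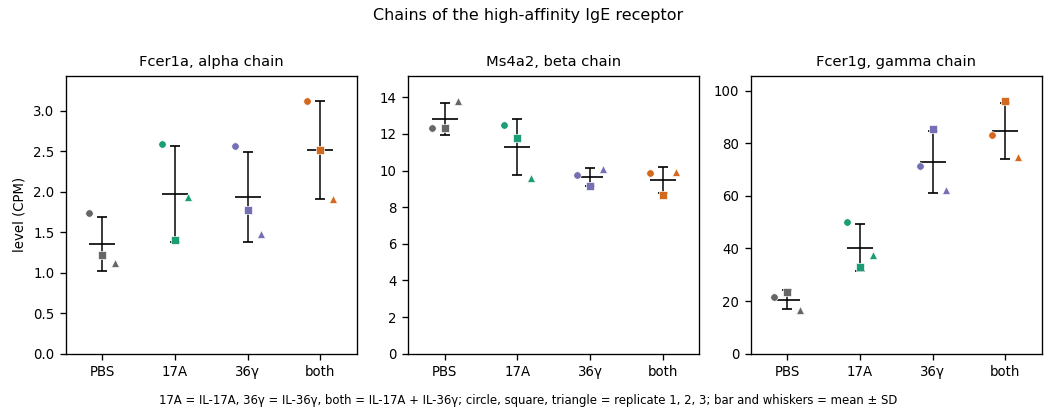
Level in CPM (vertical axis) of the genes of the 3 chains of the high-affinity IgE receptor by group, 1 point per ear library, with the mean ± SD of 3 mice. Ms4a2 goes from 12.8 CPM in PBS to 9.48 CPM in the combination, while Fcer1a goes from 1.36 to 2.52 CPM and Fcer1g from 20.6 to 84.7 CPM.

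Mrgprb2 was the member lowered most. Its product is the receptor by which mouse mast cells respond to cationic secretagogues such as compound 48/80 and substance P. It was at 5.73, 8.44 and 7.67 CPM in PBS and at 6.35, 5.75 and 5.75 CPM after IL-17A. With IL-36γ the levels were 5.16, 4.02 and 5.51 CPM, and with both cytokines they were 3.82, 1.72 and 3.88 CPM. The 3 libraries of the combination were the 3 lowest of all 12, and those of IL-36γ also lay below each PBS library. Mrgprb2 fell by 56.8% after the combination, with a log2 change of -1.21 ± 0.26 (adjusted p = 0.00277), and the change was -1.08 (adjusted p = 0.00692) without the libraries low in muscle genes. Without replicate 2 of the combination, the lowest library, it was -0.93 (adjusted p = 0.00399) and no longer past the threshold on the fold change. After IL-36γ alone it was -0.57 ± 0.25 and did not pass (adjusted p = 0.103), although it did without the libraries low in muscle genes (-0.75, adjusted p = 0.00504). After IL-17A alone it was -0.29 (adjusted p = 0.454).

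Mrgprb1, a related receptor gene of the same cluster, was at 16.4, 18.7 and 20.3 CPM in PBS and at 19.4, 16.8 and 15.6 CPM after IL-17A. In the IL-36γ group it was at 13.6, 11.3 and 15.5 CPM, and in the combination at 12.7, 10.2 and 13.1 CPM. The libraries of IL-36γ and of the combination all lay below those of PBS. The log2 change was -0.46 ± 0.14 after IL-36γ (adjusted p = 0.0300) and -0.62 ± 0.14 after both cytokines (adjusted p = 0.00399). It was -0.60 without the libraries low in muscle genes (adjusted p = 0.0435).

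Hdc encodes histidine decarboxylase, the enzyme that forms histamine, and was the member that rose most. It was at 9.0, 18.1 and 10.6 CPM in PBS and at 31.8, 11.0 and 11.2 CPM after IL-17A. The libraries of IL-36γ stood at 12.5, 24.3 and 13.7 CPM, and those of the combination at 40.1, 22.9 and 23.3 CPM. All 3 libraries of the combination lay above those of PBS, but in each of the 4 groups 1 library stood above the remaining pair. The log2 change by the combination was 1.20 ± 0.43 (adjusted p = 0.0403), and the intervals after IL-17A (-0.42 to 1.46) and IL-36γ (-0.51 to 1.36) were wide. Without the libraries low in muscle genes it was 0.67 (adjusted p = 0.437). The call also ended without PBS replicate 1, PBS replicate 3 or IL-17A + IL-36γ replicate 1, and with library size in place of TMM scaling (1.04, adjusted p = 0.0600).

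Neutrophils also express Hdc. All 8 neutrophil genes of the list (Ly6g, Cxcr2, Csf3r, S100a8, S100a9, Retnlg, Mmp8 and Mmp9) were raised after the combination, beside 23.7% of all genes. After IL-17A 5 of the 8 were raised, beside 7.44%, and after IL-36γ 7 were, beside 17.3%. The sum of the 8 genes ranged from 20.4 to 100 CPM in PBS and from 7623 to 10059 CPM with both cytokines. It was 387 to 883 CPM with IL-17A and 2287 to 4845 CPM with IL-36γ. Most of the sum came from S100a8 and S100a9, at 3359 ± 354 and 4975 ± 960 CPM after both cytokines. The paper names macrophages and keratinocytes beside neutrophils as sources of their proteins. In each of the 4 groups the library with the highest Hdc was also the one with the highest Csf3r, S100a8, S100a9 and Mmp9. The library was the same in 3 of the 4 groups for Cxcr2 and Mmp8, and in 2 of the 4 for Retnlg and Ly6g, the latter with no count in PBS. The same held in all 4 groups for Srgn, which encodes the proteoglycan core of mast cell granules and of granules of other blood cells. How many of all genes have the same highest libraries was not counted. IL-17A replicate 1 was also the highest of its group for the 4 protease genes. The part of neutrophils in the rise of Hdc was not tested.

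**Figure D4:**
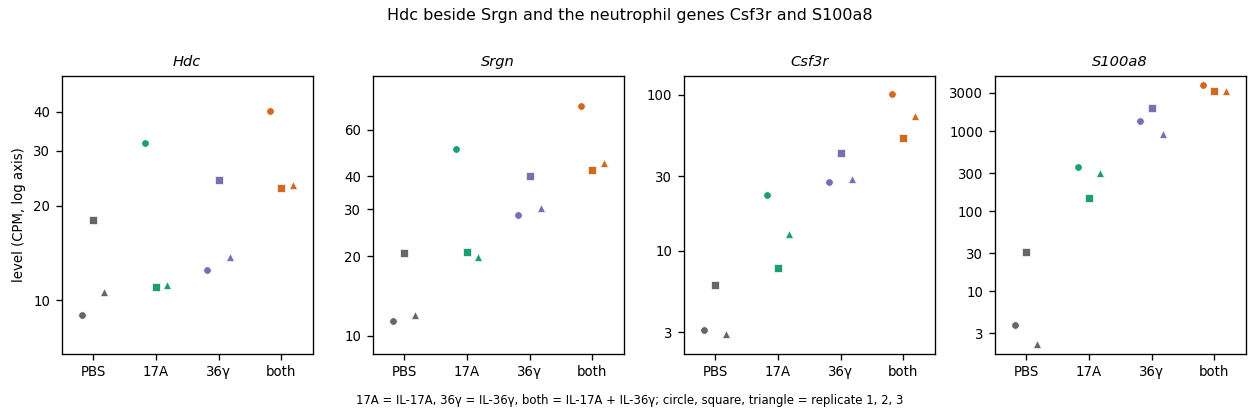
Level in CPM (vertical axes, log scale) of Hdc, Srgn and the neutrophil genes Csf3r and S100a8 by group, 1 point per ear library, with the marker giving the replicate. In each group the highest library is the same for the 4 genes, for example IL-17A + IL-36γ replicate 1 with 40.1 CPM of Hdc, 73.9 CPM of Srgn and 102 CPM of Csf3r.

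Ratios within a library do not depend on the scaling between libraries and were added after the counts had been seen. Per 100 counts of Cpa3, Kit was at 21.1, 28.5 and 28.5 counts in PBS and at 14.1, 12.2 and 19.1 after both cytokines. Ms4a2 was at 15.5, 17.9 and 20.6 in PBS and 13.7, 12.0 and 14.5 after both, and Mrgprb1 at 20.8, 27.3 and 30.4 in PBS and 17.7, 14.2 and 19.3 after both. Mrgprb2 went from 10.3 ± 2.70 to 4.47 ± 1.81. For these 4 receptor genes the libraries of both groups did not overlap. In CPM the combination lay below PBS without overlap for 25.6% of all genes and above for 27.0%. The shares for ratios to Cpa3 were not counted. Mcpt4 per 100 Cpa3 was 71.0 ± 0.490 in PBS and 69.6 ± 8.89 after both, and Tpsb2 was 20.2 ± 2.27 and 17.8 ± 4.03, both overlapping. Cma1 was slightly higher after both cytokines, 79.1 ± 3.17 against 71.8 ± 1.31 counts, and Hdc was at 40.6 ± 13.2 against 17.8 ± 7.67 counts, with no overlap for either. The 4 receptor genes had already been found lowered in these counts, and Cpa3 had not passed the test. Their lower ratios to Cpa3 restate those results and are no separate test. Within the Mrgprb pair, Mrgprb2 per 100 Mrgprb1 was at 34.8, 45.1 and 37.7 in PBS and 30.1, 16.8 and 29.5 after both. Within the IgE receptor, Ms4a2 per 100 Fcer1a was 981 ± 264 in PBS and 393 ± 110 after both. Against PBS, 3 libraries per group cannot give an exact two-sided permutation p below 0.10, the value of each ratio without overlap, and the smallest adjusted over the 33 comparisons of 11 ratios was 0.236.

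**Figure D5:**
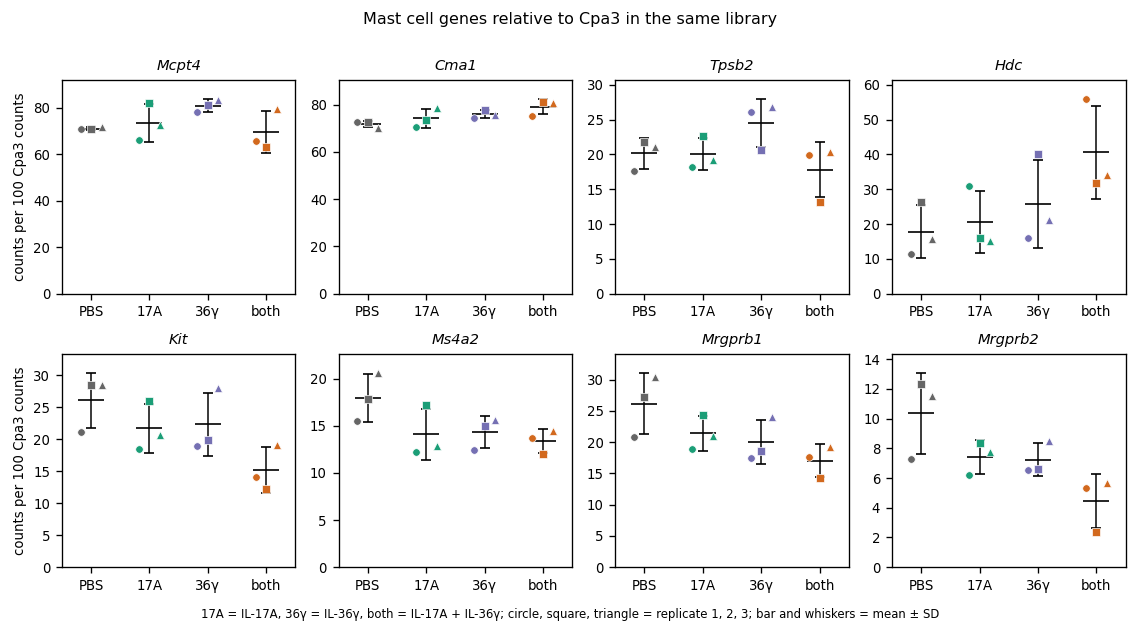
Counts of each gene per 100 counts of Cpa3 in the same library (vertical axis) by group, 1 point per ear library, with the mean ± SD of 3 mice. Kit, Ms4a2, Mrgprb1 and Mrgprb2 lie lower in the combination than in PBS without overlap, while Mcpt4 and Tpsb2 overlap. The share of all genes without overlap per 100 Cpa3 was not counted.

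After IL-36γ alone 2 of 10 members were lowered at any fold (Ms4a2 and Mrgprb1), beside 11.1% of all genes tested, and none was raised, beside 17.3%. None was called with the threshold on the fold change, beside 1.98% of genes lowered and 5.11% raised. The libraries lay below those of PBS for 3 members, beside 19.2% of all genes, and above for none, beside 22.4%. The count at an unadjusted p below 0.05 was 3 members, beside 8116 of the 19408 genes tested. Both results rest on few libraries. Neither gene passed when PBS replicate 3 or IL-36γ replicate 2 was left out, and Mrgprb1 also did not pass without PBS replicate 2 or IL-36γ replicate 1. Mrgprb2 passed in addition by the likelihood ratio test of DESeq2 and, in edgeR, with library size scaling (-0.73, adjusted p = 0.0458). It also passed without PBS replicate 1 or without replicate 2 of the combination, but not in most of the alternatives.

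After IL-17A alone no member passed in either direction, beside 3.49% of all genes lowered and 7.44% raised at any fold, and 1.03% lowered and 1.07% raised with the threshold on the fold change. No member passed at an unadjusted p below 0.05 in edgeR, beside 6013 of the 19408 genes tested. None passed at an adjusted p below 0.05 in DESeq2, beside 1487 genes lowered and 2296 raised. The libraries overlapped with PBS for all 10 members, beside 14.0% of genes that lay lower and 19.6% that lay higher. The median log2 change of the members was 0.19, that of all genes 0.04. The widest intervals, of Hdc and Fcer1a, reach 1.46 and 1.17 on the log2 scale, so a rise of either up to these values is within the error.

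Adding IL-36γ to IL-17A lowered 3 members. Against IL-17A alone, the combination had lower Kit (log2 change -0.70 ± 0.17, adjusted p = 0.00768), Mrgprb1 (-0.52 ± 0.14, adjusted p = 0.0153) and Mrgprb2 (-0.92 ± 0.26, adjusted p = 0.0187), 3 of 10 beside 17.7% of all genes, and no member was raised, beside 15.1%. Hdc was at 0.68 (adjusted p = 0.249) and, without IL-17A replicate 1, at 1.40 (adjusted p = 0.0187). No member was called with the threshold on the fold change, beside 4.49% lowered and 4.46% raised. The 3 values were -0.41, -0.39 and -0.61 and none passed when the libraries low in muscle genes were left out. Mrgprb2 also did not pass without IL-17A replicate 1 or 2, nor Mrgprb1 without IL-17A replicate 1 or replicate 2 of the combination. For IL-17A added to IL-36γ edgeR found 0.0206% of all genes lowered and 0.00% raised at any fold, and no member passed. At an unadjusted p below 0.05 there were 2938 of the 19408 genes, and DESeq2 found 500 lowered and 182 raised at an adjusted p below 0.05. At an unadjusted p below 0.05 the members were Kit (-0.49, 95% interval -0.85 to -0.13), Mrgprb2 (-0.64, -1.21 to -0.07) and Tpsb2 (-0.41, -0.82 to -0.01). IL-36γ against IL-17A gave no member, beside 3.61% lowered and 4.37% raised. At an unadjusted p below 0.05 it gave Mrgprb1 (-0.36, -0.66 to -0.05), beside 4850 of the 19408 genes. By DESeq2 no member passed in either comparison. The comparisons with PBS and with single cytokines share libraries, so their values are not independent.

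The interaction, which asks whether the log2 change by IL-17A was another with IL-36γ than with PBS, passed for no member, beside 0.551% of all genes. By DESeq2 it also passed for none. At an unadjusted p below 0.05 it was lower for Mcpt4 (-0.39, 95% interval -0.73 to -0.04, adjusted p = 0.177) and Tpsb2 (-0.59, -1.17 to -0.02, adjusted p = 0.209). Of all 19408 genes, 4373 had such an unadjusted p in either direction. For Mrgprb2 and Hdc, the members called in the combination, it was -0.35 (-1.13 to 0.44) and 0.25 (-1.07 to 1.57). Both intervals include 0 and reach beyond 1 in size. For Mrgprb2 and Hdc neither a joint effect beyond the sum of the log2 changes nor its absence is thus shown. A sum of levels in CPM was not tested.

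Other mast cell genes were described from 3 lists. Of 10 granule genes, 7 were tested, and after the combination 2 were raised, beside 23.7% of all genes, and 1 was lowered, beside 20.9%. Srgn rose by 1.88 on the log2 scale (adjusted p = 0.00163) and Cd63 by 0.51 (adjusted p = 0.00509). Slc18a2, the vesicular amine transporter that loads histamine into granules, changed by -0.55 (adjusted p = 0.0143), from 5.14 ± 0.798 to 3.52 ± 0.577 CPM. Tpsg1 had a log2 change of -0.52 and did not pass (adjusted p = 0.0583). The tryptase gene Tpsab1, chosen after its values were seen, lay below each PBS library in all 3 cytokine groups, at 1.97, 2.49 and 2.12 CPM in PBS and 1.40, 1.39 and 1.94 CPM after both. Its log2 change was -0.47 after both (adjusted p = 0.0702), -0.49 with IL-36γ (adjusted p = 0.0765) and -0.48 with IL-17A (adjusted p = 0.121), and none passed. Without the libraries low in muscle genes Cd63 alone of the 7 passed (0.53, adjusted p = 0.0465), with Srgn at 1.43 (adjusted p = 0.0561) and Slc18a2 at -0.48 (adjusted p = 0.0797). The median log2 change of the 7 genes was 0.10, beside -0.03 for all genes tested.

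Of 11 genes of IgE receptor signal and lipid mediators, 5 were raised, beside 23.7% of all genes, and 3 were lowered, beside 20.9%, after the combination, with a median log2 change of 0.28. When the libraries low in muscle genes were left out, 5 were raised and 2 were lowered. The raised genes named here were Alox5ap (1.61), Fcer1g (2.04), the kinase gene Syk (1.61) and the kinase gene Lyn (adjusted p = 3.82e-05), which are expressed by many myeloid cells. The gene lowered most was outside the 4 named by rule and was chosen after its values were seen. It was Ltc4s, the synthase of leukotriene C4, which went from 4.54 ± 0.797 CPM in PBS to 3.96 ± 0.475 CPM with IL-17A and 1.56 ± 0.446 CPM with IL-36γ. With both it was at 0.974 ± 0.153 CPM, a log2 change of -2.21 (adjusted p = 3.97e-05).

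Of 9 genes of growth factors, cytokine receptors and transcription factors, 2 were raised, beside 23.7% of all genes, and 3 were lowered, beside 20.9%, after the combination, with a median log2 change of -0.28. With the libraries low in muscle genes left out 1 was raised (Csf2rb) and 1 was lowered (Kitl). Csf2rb, the shared beta chain of the receptors for IL-3, IL-5 and GM-CSF, rose by 1.21 (adjusted p = 0.000146). The transcription factor genes Gata2 and Tal1 were lowered. Gata2, which mast cells need for their identity, was at 6.81, 6.17 and 6.70 CPM in PBS and at 4.33, 4.10 and 4.21 CPM after both, a log2 change of -0.64 (adjusted p = 0.00249). Tal1 changed by -0.57 (adjusted p = 0.0127). In that fit Gata2 was at -0.64 (adjusted p = 0.0604) and Tal1 at -0.35 (adjusted p = 0.228). Kitl, given above with Kit, was the third. Endothelial cells also express Gata2 and Tal1. Of 5 endothelial genes 3 were lowered after the combination, beside 20.9% of all genes. They were Kdr (-0.31, adjusted p = 0.0189), Tek (-0.54, adjusted p = 0.0304) and Emcn (-0.27, adjusted p = 0.0367). The other 2, Pecam1 (0.02, adjusted p = 0.880) and Cdh5 (0.24, adjusted p = 0.156), did not pass. Without the libraries low in muscle genes Kdr was at -0.34, Tek at -0.48, Emcn at -0.36, Pecam1 at 0.01 and Cdh5 at -0.03. The sum of the 5 was 120 to 146 CPM in PBS and 120 to 126 CPM after both, and the part of endothelial cells in the values of Gata2 and Tal1 was not tested.

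Basophils share several members and were at the edge of detection. Mcpt8, the defining basophil protease, had 3, 1 and 1 counts in PBS, 3, 1 and 1 after IL-17A, 5, 8 and 5 after IL-36γ and 8, 7 and 12 after both, a ratio of 6.81 for the combination against PBS with a 95% counting interval of 2.58 to 22.6. Prss34 had 0 to 2 counts in each library. Of the other basophil genes Il3ra rose by 0.43 (adjusted p = 0.0434), Itga2, which skin cells of many kinds express, changed by -0.72 (adjusted p = 0.00159), and Cd200r3 had a value of -0.38 (adjusted p = 0.158). The part of basophils in the rise of Fcer1a was not tested. In total the members summed to 248 to 268 CPM in PBS and to 240 to 267 CPM after both cytokines, and IL-17A replicate 1 had the highest sum of the 12 libraries, 353 CPM.

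Within groups some members varied together from mouse to mouse and others did not. Over the 12 libraries, as deviations from the group means, Cma1 and Cpa3 correlated with r = 0.96, Kit and Mrgprb1 with r = 0.90 and Mrgprb1 and Mrgprb2 with r = 0.81. Cma1 and Kit had r = -0.02, and Cpa3 and Mrgprb2 had r = -0.01. Hdc had no r above 0.33 with another member, and Fcer1a had its highest with Cpa3 (0.84). These points share the library, its depth and its scaling, and they are given as a description. The genes most like the mean of the members over the 12 libraries were Zfp637 and Mypop (both r = 0.88), followed by Gpx3 and BC024063 (both 0.86) and Mab21l2 (0.85). By deviations from group means Hsd11b1 was first (r = 0.97), and 1 gene, Gm25394, was among the first 10 by both measures.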

How the data were processed

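RNA-Seq was performed on 12 ears, 3 mice in each of 4 groups, and samples were grouped by their labels. The authors made stranded libraries with ribosomal RNA depletion, sequenced 76 cycles from both ends, aligned the reads with STAR 2.5.2b to mm10 and deposited raw counts per Ensembl gene from featureCounts (Subread 1.5.1). The strand setting of the counting is not given in the sources used here. The deposited tables of comparisons, made by the authors with DESeq2 1.30.0, hold their fold changes and p-values and were used only to pair identifiers with symbols.

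Counts were tested with the quasi-likelihood test of edgeR 4.0.16 (R 4.3.3, limma 3.58.1) after filterByExpr with a minimum count of 10 and TMM scaling, in 1 fit of the 4 group means over all 12 libraries. P-values were adjusted by Benjamini-Hochberg over the 19408 genes tested. Of 50684 genes, 16630 had no count. A gene was called at an adjusted p below 0.05 and a log2 change above 1 in size, and the interaction at the adjusted p alone. The common biological coefficient of variation was 14.2%. A single count corresponded to 0.0277 to 0.0402 CPM, and counting intervals cover counting error only. No library was a copy of another, with a chi-square per gene of 7.09 to 64.0 over 12 pairs within groups. The fit was tested on simulated data.

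The members and gene lists were chosen with earlier results of these data known. Named were the 10 members, at most 4 genes per other list (those called in most comparisons with PBS, then by the adjusted p of the combination), all basophil genes and the 10 genes most like the members by Pearson correlation of log2 CPM with a prior count of 2. Alternatives were DESeq2 1.42.0 (likelihood ratio test and size factors), library size scaling, other count filters, a fit of the compared groups only, the replicate number as a block, no fold change threshold, each library left out, and, added after seeing the data, removal of the 3 libraries low in muscle genes. Figures were drawn with matplotlib 3.10.9.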

Additional observations from a re-analysis of the deposited data

How the results depend on the processing

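For the combination against PBS, 2 members were called, 6 with no fold change threshold, 1 with library size scaling, 1 without the 3 libraries low in muscle genes and 1 to 3 with a library left out (1 without PBS replicate 3 or without replicate 1 or 2 of the combination). For IL-36γ against PBS the count was 0, and 2 with no fold change threshold. For the combination against IL-17A it was 0, and 3 with no fold change threshold and 0 to 1 with a library left out. Mrgprb1 and Mrgprb2 passed at any fold in the combination against PBS in 20 of 20 alternatives, Kit and Ms4a2 in 19, Fcer1a and Hdc in 15. Without the 3 libraries low in muscle genes the combination keeps 1 library, which is assumed to vary like the other groups. The causes were not tested.

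With the replicate number as a block, 2 members were called for the combination against PBS and 0 in each other comparison, so no count of members called changed. At any fold Mcpt4 passed in addition for the combination against IL-17A (adjusted p = 0.0431). Of 18 pairs of libraries with the same number 9 had a correlation of deviations above 0.1, with a range of -0.20 to 0.35. Over all genes, 3360 passed after IL-17A at any fold with the block and 2120 without it. For the interaction the numbers were 883 and 107. These values do not settle whether equal replicate numbers pair the mice, and the main fit uses no block.

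Among the values reported, changes of sign occurred in values that did not pass the test or had none. With a library left out, the log2 change ranged from -0.03 to 0.28 for Cpa3 and -0.21 to 0.87 for Hdc after IL-17A, from -0.12 to 0.09 for Cma1 and -0.21 to 0.01 for Cpa3 after IL-36γ, and from -0.12 to 0.03 for Mcpt4 and -0.06 to 0.06 for Cpa3 after both. Against IL-17A it ranged from -0.21 to 0.06 for Cma1 and -0.30 to 0.00 for Cpa3. With library size scaling Mcpt4 (-0.04) and Cma1 (-0.15) after IL-36γ and Cma1 (-0.02) after both turned. Cma1 after IL-36γ was -0.01 with DESeq2, its size factors, no filter and the stricter filter, and 0.00 with only the groups compared. Without the libraries low in muscle genes Mcpt4 was 0.14 after both and Fcer1a was -0.04 against IL-17A. The difference in Mcpt4 per 100 Cpa3, -1.5, ranged from -6.58 to 1.67 with a library left out and was 8.50 without the libraries low in muscle genes.

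Over all genes, library size scaling moved the median log2 change against PBS by -0.14 for the combination, -0.15 for IL-36γ and -0.17 for IL-17A, and gave 129 raised and 469 lowered after IL-17A (208 and 199 with TMM), 822 and 698 after IL-36γ (992 and 385), and 1204 and 1667 after both (1426 and 1177). The genes called after IL-17A numbered 407, from 9 with only the groups compared to 920 without the libraries low in muscle genes, the combination against IL-36γ gave 2, from 0 to 99 with DESeq2, and the interaction called 107, from 1 to 1679. With 3 mice per group, Hdc and Fcer1a have the widest intervals, and Fcer1a, Mcpt8 and Prss34 are limited by their low counts.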
